A study of Gallus gallus with 54 samples.

Results

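Retinas collected 4 h after a second intravitreal injection were compared with retinas collected 4 h after a first one, over the same 4 drugs. The comparison used 32 of the 54 chick retina libraries of the study, which were taken by their labels and not by any measured value: 16 from the second injection and 16 from the first, with 4 libraries for each drug at each time. Every gene was measured, and drug was kept as a block by averaging the 4 differences found within the drugs. All eyes of the 32 libraries were form-deprived, that is, covered with a translucent diffuser, and each was also injected with 1 of the 4 drugs.

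The drugs were atropine (a non-selective antagonist of muscarinic acetylcholine receptors), pirenzepine (a more selective muscarinic antagonist), ADTN (an agonist of dopamine receptors) and TPMPA (a GABA-C receptor antagonist); the labels give no doses. The birds were male White Leghorn chicks. First-injection retinas were taken on post-hatch day 7, 4 h after treatment, and second-injection retinas on day 8, at 24 h, with the repeat injection 4 h before collection. A second injection therefore came with an older bird and a longer time under the diffuser, and these cannot be told apart within the 32 libraries. The same holds for what remained of the first dose and for any difference in the time of day at collection. The study's diffuser-only eyes (4 libraries at 4 h and 4 at 24 h) and untreated eyes (4 and 3) give the same interval without an injection. No vehicle-injected eye was among the libraries used here, so the act of injecting and the drug cannot be told apart either. The labels do not say if the libraries are from separate birds, so the p-values measure the spread between these samples, which may be technical. The remaining 7 libraries, from eyes recovering after removal of a diffuser, entered the fit for the estimate of spread and no comparison.

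A diffuser blurs the image on the retina, and the growing chick eye responds by elongating, which makes it myopic. Muscarinic antagonists, dopamine agonists and GABA-C antagonists are each known to slow this elongation when injected into the eye. An injection is also a mechanical and chemical stimulus, to which retinal Mueller glia, the radial support cells of the retina, are known to respond through the ERK and STAT3 signalling pathways, within hours and in part through genes that feed back on those pathways.

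Totals were taken over the transcripts kept for the analysis, a single transcript for each gene symbol or, without a symbol, each identifier. The deposited counts of these summed to between 11043019 and 22429063 per library after the first injection. After the second they summed to between 9965008 and 24836333. Retinal markers were present in all 32 libraries. The ganglion cell gene NEFM lay between 371 and 650 CPM (counts scaled to a common library size with the trimmed mean of M values, TMM), the horizontal cell gene LHX1 between 8.10 and 16.3, and the Mueller glia gene RLBP1 between 234 and 495. Genes of other cells varied more: the endothelial gene CDH5 ran from 0 to 46.2 CPM with a median of 1.55, and the leukocyte gene PTPRC from 0.911 to 13.1. The 19 measured genes of a blood vessel and pecten list (the pecten is the vascular body of the bird eye) summed to 364 to 856 CPM after the first injection and to 326 to 802 after the second. KDR, at 260 to 526 CPM with a median of 354, made up most of that sum in many libraries. The sum therefore hides the spread of genes such as VWF, which ran from 0 to 190 CPM. The 14 measured leukocyte and microglia genes summed to 83.5 to 258 and to 102 to 272 CPM. The 14 measured genes of the pigment epithelium, the layer behind the retina, varied most, with sums of 251 to 1740 and of 395 to 1531 CPM. The part of these cells in the results was not tested. In whole retina, fewer cells of a type and less RNA per cell cannot be told apart.

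Of 15746 genes tested with edgeR's quasi-likelihood test, 9 (0.0572%) differed between the second and the first injection at a Benjamini-Hochberg adjusted p under 0.05. SFRP1, RNF145, CLCN2, LPAR1 and AOX1 were higher after the second injection (0.0318% of genes). SPRY2, IFITM5, HS3ST1 and a gene without a symbol, ENSGALG00000028629, were lower (0.0254%). The changes were small, between 0.19 and 0.64 in size on the log2 scale. Of the 9 genes, 7 moved in the same direction in all 4 drugs, and LPAR1 and AOX1 did so in 3. The genes were selected on the mean of these 4 changes, which favours a shared direction, so this count is no separate support for the calls. Nor are the counts of libraries beyond a range or without overlap that are given below for these genes. Without a multiple-testing adjustment, 886 genes had a p under 0.05. A share of 0.05 of the 15746 genes is expected to do so if none changed. The unadjusted counts given here and below are therefore not counts of changed genes.

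SPRY2 (Sprouty 2, a feedback inhibitor of receptor tyrosine kinase and ERK signalling; chr1:152670026-152675345 in galGal5, plus strand) had the smallest adjusted p. Its lowest, median and highest levels were 44.7, 57.9 and 81.0 CPM after the first injection and 30.4, 43.6 and 55.3 CPM after the second. All 16 second-injection libraries lay below the first-injection median, and 10 lay below every first-injection library. The mean log2 change was −0.45 ± 0.06 (SE, n = 16 against 16; 95% confidence interval −0.58 to −0.32; adjusted p = 9.58e-05). By drug, SPRY2 went from 69.3 ± 8.06 to 45.6 ± 7.60 CPM with atropine, from 62.5 ± 7.18 to 43.4 ± 9.30 with pirenzepine, from 56.0 ± 9.49 to 46.0 ± 6.84 with ADTN and from 53 ± 5.71 to 40.5 ± 3.02 with TPMPA (mean ± SD, n = 4 each). The libraries of the 2 times did not overlap in 3 of the 4 drugs. With ADTN they overlapped.

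Eyes with a diffuser and no injection had SPRY2 levels of 31.2, 30.4, 25.3 and 25.7 CPM at 4 h and 30.1, 33.3, 28.5 and 35.5 CPM at 24 h. These 8 values lay below every first-injection library, and at or below the low end of the second-injection libraries. Against diffuser alone, SPRY2 rose after the first injection (log2 change 1.09, adjusted p = 7.27e-09) and after the second (0.46, adjusted p = 0.0452). The second-injection call held in 6 of 20 fits that left out 1 library. It was lost without any 1 of the 4 diffuser-only libraries (adjusted p = 0.0506 to 0.32) and without any 1 of 10 injected libraries: atropine replicates 2 and 4, pirenzepine 2, 3 and 4, ADTN 1, 2 and 3, and TPMPA 1 and 2 (0.0501 to 0.0717). The difference between the injected and the diffuser-only change over the interval was −0.63 and did not pass over all genes (adjusted p = 0.359).

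SFRP1 (a secreted antagonist of Wnt signalling; chr22:2593802-2604692 in galGal5, minus strand) moved the other way. Its lowest, median and highest levels were 228, 253 and 337 CPM after the first injection and 274, 329 and 442 CPM after the second. All 16 second-injection libraries lay above the first-injection median, and 7 lay above every first-injection library. The log2 change was 0.31 ± 0.05 (95% interval 0.20 to 0.42; adjusted p = 0.00383), and by drug it was 0.41 with atropine, 0.36 with pirenzepine, 0.31 with ADTN and 0.17 with TPMPA. Atropine libraries read 248, 249, 228 and 233 CPM after the first injection and 320, 299, 341 and 308 CPM after the second. Diffuser-only eyes read 352, 446, 346 and 419 CPM at 4 h and 386, 447, 412 and 378 at 24 h, so the atropine eyes were below every diffuser-only library at both times. Against diffuser alone SFRP1 fell by 0.55 on the log2 scale after the first injection (adjusted p = 4.19e-05), and was −0.29 after the second, which did not pass (adjusted p = 0.15).

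RNF145 (an endoplasmic reticulum ubiquitin ligase that acts on sterol regulation in mammals; chr13:10638643-10673899 in galGal5, plus strand) had the most second-injection libraries beyond the first-injection range among the 9 genes. Its lowest, median and highest levels were 284, 356 and 384 CPM after the first injection and 363, 400 and 439 CPM after the second. All 16 second-injection libraries lay above the first-injection median, 12 lay above every first-injection library, and the 2 times did not overlap within any of the 4 drugs. The log2 change was 0.19 ± 0.04 (95% interval 0.12 to 0.27; adjusted p = 0.0176). Diffuser-only eyes read 440, 442, 418 and 431 CPM at 4 h and 457, 469, 416 and 391 at 24 h. RNF145 fell by 0.31 against diffuser alone after the first injection (adjusted p = 0.00195), and was −0.12 after the second, which did not pass (adjusted p = 0.469).

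CLCN2 (a chloride channel whose loss in mice leads to photoreceptor degeneration; chr9:15969989-15979634 in galGal5, minus strand) read 5.05, 9.10 and 13.5 CPM (lowest, median, highest) after the first injection and 6.84, 13.2 and 21.4 CPM after the second. Of the second-injection libraries, 15 lay above the first-injection median and 7 above every first-injection library; 1 pirenzepine library, at 6.84 CPM, lay well below the other 3. CLCN2 was higher by 0.52 ± 0.10 log2 (95% interval 0.31 to 0.73; adjusted p = 0.0235). CLCN2 did not pass against diffuser alone at either time (−0.38, adjusted p = 0.273, and 0.30, adjusted p = 0.528).

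LPAR1 (a receptor for lysophosphatidic acid; chrZ:66811339-66876495 in galGal5, minus strand) read 10.2, 14.9 and 24.7 CPM (lowest, median, highest) after the first injection and 13.7, 18.3 and 28.0 CPM after the second. Of the second-injection libraries, 14 lay above the first-injection median and 3 above every first-injection library. LPAR1 was higher by 0.39 ± 0.08 log2 (95% interval 0.23 to 0.55; adjusted p = 0.0235). The drugs were uneven: pirenzepine libraries read 15.2, 16.7, 12.3 and 12.0 CPM and then 25.8, 27.1, 24.0 and 28.0, whereas TPMPA libraries read 15.2, 15.9, 24.7 and 17.8 and then 24.3, 15.2, 13.7 and 15. The 4 pirenzepine libraries of each time did not overlap and the TPMPA libraries did. A test of whether the change differed between drugs gave an adjusted p of 0.208 for LPAR1.

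AOX1 (aldehyde oxidase, which can oxidise retinaldehyde to retinoic acid; chr7:11249381-11285636 in galGal5, plus strand) read 20.3, 33.0 and 51.8 CPM (lowest, median, highest) after the first injection and 22.6, 48.3 and 79.9 CPM after the second. Of the second-injection libraries, 15 lay above the first-injection median and 8 above every first-injection library. The log2 change was 0.58 ± 0.12 (95% interval 0.33 to 0.83; adjusted p = 0.0479), made of 1.19 with atropine, 0.55 with pirenzepine, −0.11 with ADTN and 0.68 with TPMPA. Atropine libraries went from 25.5, 28.5, 29.4 and 21.1 CPM to 58.2, 39.4, 79.9 and 60.5, and ADTN libraries from 39.8, 44.6, 43.1 and 51.8 to 44.6, 42.3, 36.6 and 42.7. The atropine libraries of the 2 times were separate and the ADTN libraries overlapped. AOX1 fell by 1.03 on the log2 scale against diffuser alone after the first injection (adjusted p = 0.0013). It was −0.31 after the second, which did not pass (adjusted p = 0.561).

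IFITM5 (a member of a family of interferon-induced membrane proteins, known for its expression in bone-forming cells; chr5:1556571-1558140 in galGal5, plus strand) read 11.4, 20.6 and 44.6 CPM (lowest, median, highest) after the first injection and 7.17, 13.0 and 27.6 CPM after the second. Of the second-injection libraries, 13 lay below the first-injection median and 7 below every first-injection library. IFITM5 had a log2 change of −0.64 ± 0.13 (95% interval −0.91 to −0.37; adjusted p = 0.0354). Diffuser-only eyes read 5.89, 5.82, 5.87 and 6.45 CPM at 4 h and 5.49, 4.19, 5.53 and 4.38 CPM at 24 h, below every injected library of the same time. IFITM5 rose against diffuser alone after the first injection (log2 change 1.84, adjusted p = 8.46e-06) and after the second (1.5, adjusted p = 0.000962).

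HS3ST1 (a sulfotransferase that modifies heparan sulfate chains; chr4:78622367-78623329 in galGal5, plus strand) read 15.5, 24.2 and 27.8 CPM (lowest, median, highest) after the first injection and 13.2, 17.4 and 22.8 CPM after the second. All 16 second-injection libraries lay below the first-injection median, but only 1 lay below every first-injection library. The log2 change was −0.34 ± 0.07 (95% interval −0.49 to −0.20; adjusted p = 0.0395). ENSGALG00000028629 (chr1:185798254-185812845 in galGal5, plus strand) read 21.3, 27.3 and 30.2 CPM and then 18.1, 22.5 and 27.5 CPM, with 15 second-injection libraries below the first-injection median. Its log2 change was −0.26 ± 0.05 (95% interval −0.35 to −0.16; adjusted p = 0.0135), and in diffuser-only eyes, over the same interval, it was −0.22 (adjusted p = 0.508).

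**Figure D1:**
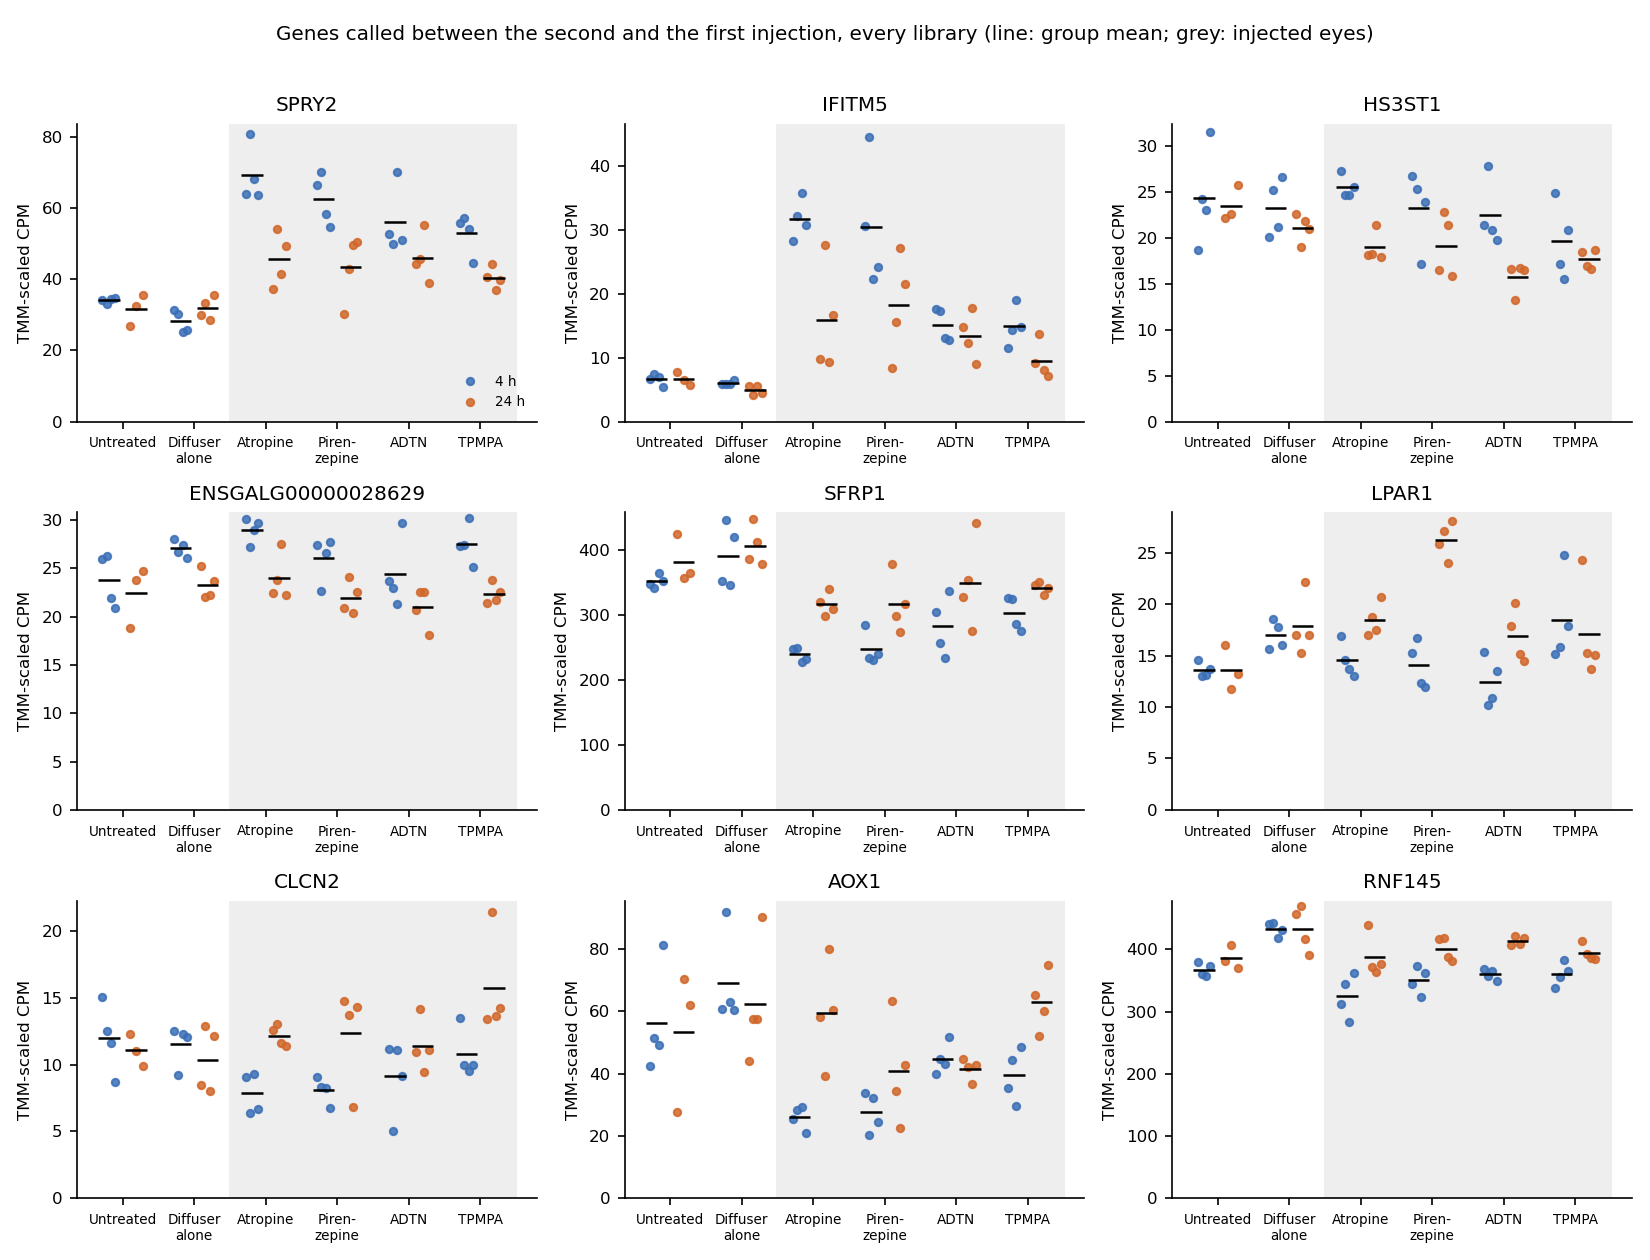
Level of each of the 9 genes that differed between the second and the first injection, in TMM-scaled CPM on a linear axis, by group and time; each point is 1 library, the line is the group mean, and the grey band holds the injected groups. The SPRY2 mean is lower at 24 h in each drug and nearer to the diffuser-only level, whereas the LPAR1 and AOX1 differences vary from drug to drug.

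The calls were not equally firm. SPRY2 was called in all 32 fits that left out 1 of the compared libraries and in all 16 other settings tried. SFRP1, RNF145 and ENSGALG00000028629 were called in all 32 of the first kind, but not with only the compared groups in the fit (adjusted p = 0.0556 for each) nor without the atropine libraries (0.238 for each). RNF145 was also lost without the pirenzepine (0.0851) or ADTN libraries (0.143), and ENSGALG00000028629 without the pirenzepine (0.0663) or TPMPA libraries (0.132). Of the 16 other settings, SFRP1 was called in 14, these 2 genes in 12, LPAR1 in 11, CLCN2 and IFITM5 in 10, HS3ST1 in 8 and AOX1 in 5. CLCN2 was called in 25 of the 32. Its call was lost without first-injection atropine replicate 2 or 4, pirenzepine 4 or ADTN 2, and without second-injection pirenzepine 1, ADTN 2 or TPMPA 2 (adjusted p = 0.0517 to 0.078). LPAR1 was called in 23, and lost without first-injection atropine replicate 3 or 4, pirenzepine 4, ADTN 2 or 3 or TPMPA 1, and without second-injection atropine 4, ADTN 2 or TPMPA 1 (0.0504 to 0.078). IFITM5 was called in 15, and lost without first-injection atropine replicate 2, 3 or 4, pirenzepine 2, ADTN 1 or 2 or TPMPA 3, and without second-injection atropine 1, 3 or 4, pirenzepine 1 or 2, ADTN 2 or 4 or TPMPA 1, 3 or 4 (0.0504 to 0.101). HS3ST1 was called in 10, those without first-injection pirenzepine replicate 3, ADTN 4 or TPMPA 2 or 3, or without second-injection atropine 3, pirenzepine 2 or 3 or ADTN 1, 3 or 4, and reached an adjusted p of 0.121 in the others. AOX1 was called in 9, those without first-injection pirenzepine replicate 1 or 3, ADTN 4 or TPMPA 2 or 4, or without second-injection atropine 2, pirenzepine 2 or 3 or ADTN 3, and reached 0.136 in the others. The count of 9 fell to 4 without first-injection atropine replicate 4 or ADTN 2 or second-injection ADTN 2, to 5 without first-injection atropine 2 or 3 or pirenzepine 4 or second-injection atropine 4 or pirenzepine 1, and was 14 without first-injection ADTN 4. Without the atropine libraries of both times, 1 gene was called, and without the pirenzepine libraries, 5. With only the compared groups in the fit, SPRY2 alone was called. With an additive drug block on the 32 libraries, 4 genes were called. Most of the 9 calls therefore depended on the spread estimated with the other groups of the study.

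Just outside the threshold were ANO6 (a membrane scramblase; 0.39, adjusted p = 0.079), STMN4 (a stathmin, which acts on microtubules; −0.31, adjusted p = 0.0847) and LIMA1 (an actin-binding protein; −0.13, adjusted p = 0.0847). The next were OCA2 (a melanosome protein; −0.39, adjusted p = 0.105) and ETV4 (an ETS transcription factor downstream of ERK; −0.58, adjusted p = 0.105). ANO6 overlaps DBX2 on the opposite strand; the kit marks strand, but no label or header says if the counting used it.

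For most genes the data bounded the difference between the injections narrowly. Among 13071 genes with a mean of at least 2 CPM in the injected libraries, the median 95% interval reached 0.137 log2 to each side of its estimate. The interval lay wholly inside ±0.25 for 8779 genes (67.2%), inside ±0.5 for 12020 (92.0%) and inside ±1 for 12854 (98.3%). Estimates beyond ±0.5 were found for 116 of these genes.

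Several genes known to respond to injection, light or blur in this tissue were followed whatever their result. EGR1 (an immediate-early transcription factor) read 29.7, 62.8 and 415 CPM (lowest, median, highest) after the first injection and 41.4, 69.3 and 137 after the second. The value of 415 came from 1 TPMPA library, whose group's other libraries read 62.2, 49.7 and 89.5. The ranges overlapped and the log2 change was −0.11 (95% interval −0.52 to 0.30; adjusted p = 0.986). The change was negative in only 1 of the 4 drugs, TPMPA, the group with the value of 415. Of the second-injection libraries, 10 lay above the first-injection median. The library at 415 CPM also entered the first-injection comparison with diffuser alone. FOS (an immediate-early partner of the AP-1 complex) read 20.3, 31.6 and 210 CPM and then 15.2, 29.3 and 85.3, a log2 change of −0.24 (−0.60 to 0.13; adjusted p = 0.932). Against diffuser alone, both rose after the first injection, EGR1 by 1.87 (adjusted p = 0.00505) and FOS by 2.12 (adjusted p = 0.000365). After the second injection EGR1 was at 1.39 (adjusted p = 0.117) and FOS at 1.35 (adjusted p = 0.0587), which did not pass.

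Among retinal peptides, VIP (vasoactive intestinal peptide, made by amacrine cells) read 12.2, 34.0 and 65.9 CPM after the first injection and 11.6, 24.0 and 71.1 after the second, a log2 change of −0.20 (−0.43 to 0.02; adjusted p = 0.901). GCG (the glucagon precursor, made by amacrine cells linked to eye growth in chicks) read 29.9, 40.3 and 70.9 CPM and then 24.4, 31.8 and 60.1, a log2 change of −0.30 (−0.53 to −0.06; adjusted p = 0.673). SST (somatostatin) and UTS2B (urotensin 2B) were at −0.13 (−0.61 to 0.36; adjusted p = 0.987) and −0.11 (−0.44 to 0.22; adjusted p = 0.985). None of these peptides passed, and the ranges of the 2 injections overlapped for each. BMP2 (a bone morphogenetic protein) was at 0.20 with a wide interval (−0.38 to 0.78; adjusted p = 0.98). OPN4-1 (a melanopsin) read 56.1, 86.2 and 110 CPM and then 50.1, 90.2 and 108, with a log2 change of 0.00 (−0.13 to 0.14; adjusted p = 1), the narrowest interval of the followed genes named here. PER3 (a clock gene) was at 0.26 (−0.09 to 0.61; adjusted p = 0.927) and CHAC1 (a glutathione-degrading enzyme of the amino acid stress response) at 0.02 (−0.67 to 0.71; adjusted p = 1).

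STAT3 (a transcription factor activated by cytokine receptors) read 254, 400 and 591 CPM (lowest, median, highest) after the first injection and 196, 342 and 565 after the second, a log2 change of −0.23 (−0.41 to −0.04; adjusted p = 0.694). SOCS3 (a feedback inhibitor of STAT signalling) read 3.52, 18.0 and 46.0 CPM and then 0.402, 11.4 and 80.5, a log2 change of −0.18 (−0.91 to 0.55; adjusted p = 0.988). GFAP (an intermediate filament of reactive glia) read 19.2, 46.3 and 58.3 CPM and then 14.7, 30.5 and 77.0, a log2 change of −0.34 (−0.73 to 0.06; adjusted p = 0.904). With atropine, SOCS3 was at 25.9, 29.7, 23.5 and 13.5 CPM after the first injection and at 3.47, 55.8, 2.69 and 28.3 after the second, and STAT3 was at 493, 421, 450 and 489 and then at 250, 497, 247 and 442. In the second-injection atropine group the same 2 libraries, replicates 1 and 3, were low for both genes, and they were low for GFAP as well (18.5 and 17.0 CPM against 57.7 and 65.7). Diffuser-only eyes read 207, 191, 191 and 193 CPM of STAT3 at 4 h and 202, 226, 194 and 207 at 24 h.

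**Figure D2:**
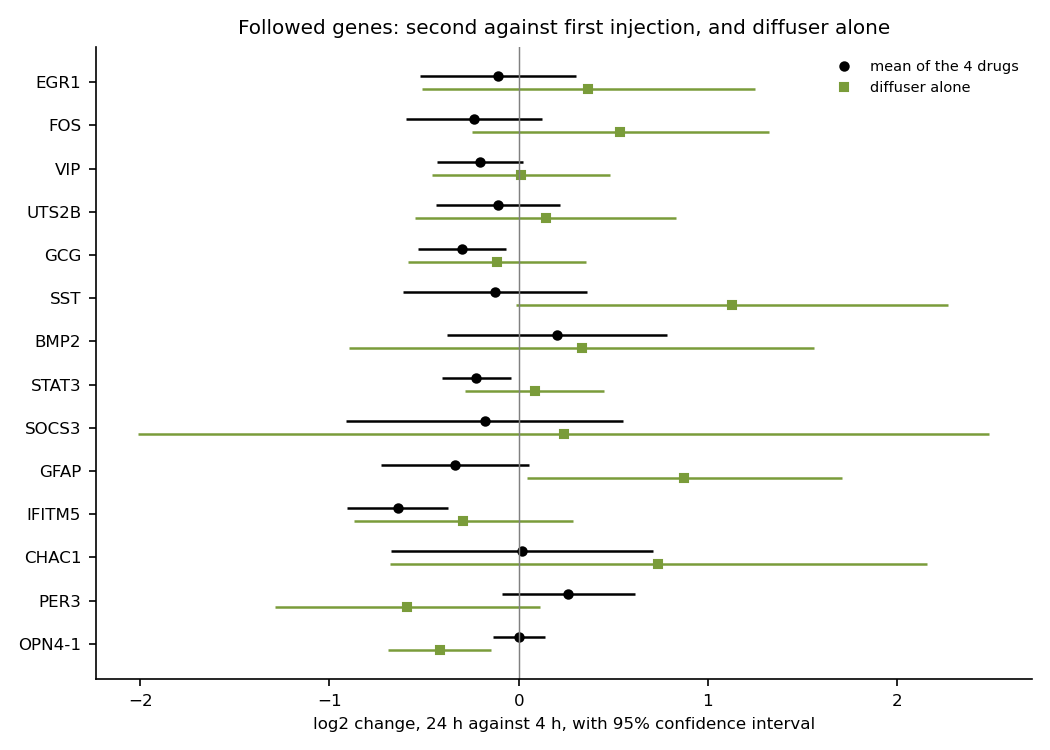
Log2 change from 4 h to 24 h of the followed genes, with its 95% confidence interval, in injected eyes (second against first injection, mean of the 4 drugs) and in eyes with the diffuser alone. Of the genes plotted, IFITM5 passed in injected eyes and the others did not, and the diffuser-only intervals, from 4 libraries a time, are wider.

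Gene lists were described by their counts and medians; over all 15746 genes, 7727 had a positive change and the median was 0.00. Of 25 measured genes of an interferon-response list (of 34 listed), 1 had a positive change, and the median was −0.34. Only IFITM5 passed, the family member known from bone-forming cells, and no other gene of the list did. OASL (an antiviral protein of the oligoadenylate synthetase family) read 0.907, 5.94 and 34.3 CPM (lowest, median, highest) after the first injection and 0.098, 2.30 and 9.79 after the second, a log2 change of −1.76 that did not pass (adjusted p = 0.289). Its 4 ADTN libraries read 34.3, 33.8, 20.2 and 5.62 CPM and then 6.17, 9.79, 4.44 and 2.41. TRIM25 (a ubiquitin ligase of antiviral sensing; −0.79, adjusted p = 0.268), RSAD2 (the antiviral protein viperin; −1.90, adjusted p = 0.577), MX1 (an antiviral GTPase; −1.12, adjusted p = 0.914) and IRF1 (an interferon regulatory factor; −0.55, adjusted p = 0.912) did not pass either. The list's median was −0.61 with atropine, −0.48 with ADTN and −0.65 with TPMPA, but 0.01 with pirenzepine, where 13 of the 25 genes were positive. It was 0.23 in diffuser-only eyes and −0.35 in untreated eyes.

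The vessel and pecten list, like the interferon list, had a median below 0 with atropine, ADTN and TPMPA and in untreated eyes, and above 0 with pirenzepine and with the diffuser alone. It was at −0.57 with atropine, −0.84 with ADTN, −1.21 with TPMPA and 1.21 with pirenzepine, and over the 4 drugs 4 of its 19 genes were positive with a median of −0.32, and none passed. It was at 1.89 in diffuser-only eyes and at −1.29 in untreated eyes. The leukocyte list was at −0.34, −0.20, −0.32 and 1.06 in the same order of drugs. Single libraries stood apart in mean log2 level. For the vessel list, TPMPA replicates 1 to 4 were at 3.77, 0.07, 0.14 and 0.29 after the first injection. After the second they were at 0.03, 0.98, 1.04 and 0.22. The pirenzepine replicates were at 0.33, 0.19, 0.60 and 0.95, then at 3.54, 0.56, 0.14 and 0.88. For the leukocyte list they were at 1.46, 1.53, 1.21 and 1.53, then at 3.56, 1.67, 1.80 and 1.91. The part of vessel and blood cells in the interferon values was not tested.

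Other lists held few or no genes that passed. Of 29 measured phototransduction genes, 23 had a positive change (median 0.10) and none passed: ARR3 (cone arrestin) was at 0.22 (adjusted p = 0.61). The same list had a median of −0.27 after the first injection against diffuser alone, where 8 of the 29 fell (0.597% of all genes did), among them ARR3 (−0.51, adjusted p = 0.0168), PDE6B (rod phosphodiesterase; −0.76, adjusted p = 0.0202) and CNGA3 (a cone cyclic nucleotide-gated channel; −0.57, adjusted p = 0.00485). After the second injection its median was −0.02. In diffuser-only eyes the list's change over the interval was −0.19, and in untreated eyes 0.09. The diffuser-only eyes had high photoreceptor markers at 4 h. Their 3 measured rod markers summed to a median of 1095 CPM, against 818 in untreated and 863 in injected eyes. For the 2 measured cone markers these medians were 1169, 959 and 941 CPM. The ranges of these groups overlapped. The part of the diffuser-only level in the 4 h difference was not tested.

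Of 12 measured genes of ERK feedback, 6 were positive, SPRY2 passed, and the median was 0.03. DUSP6 (a phosphatase that inactivates ERK) was at −0.04, DUSP4 (of the same family) at 0.29 and PHLDA1 (an ERK-induced gene) at −0.34 (adjusted p = 0.35). Against diffuser alone after the first injection, 5 of the 12 rose (0.978% of all genes did), among them DUSP6 (0.50, adjusted p = 0.002) and PHLDA1 (0.75, adjusted p = 0.00589). Of 35 measured immediate-early genes, 13 were positive (median −0.05), of 24 cytokine, STAT and NF-kB genes, 3 (median −0.07), and of 28 Mueller glia reactivity genes, 12 (median −0.01); none passed. The 22 measured clock genes (14 positive, median 0.05) included NPAS2 (−0.27, adjusted p = 0.413) and PER2 (0.19, adjusted p = 0.681), which did not pass. Of 17 measured retinoic acid genes, 13 were positive (median 0.06), and AOX1 passed. No gene passed in the lists of dopamine (13 measured), muscarinic (15), GABA (18), BMP and TGF-beta (22), heat shock (25), glycolysis (25), cholesterol (22), cell division (23), NRF2 (20), p53 (19) and complement (14) genes.

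**Figure D3:**
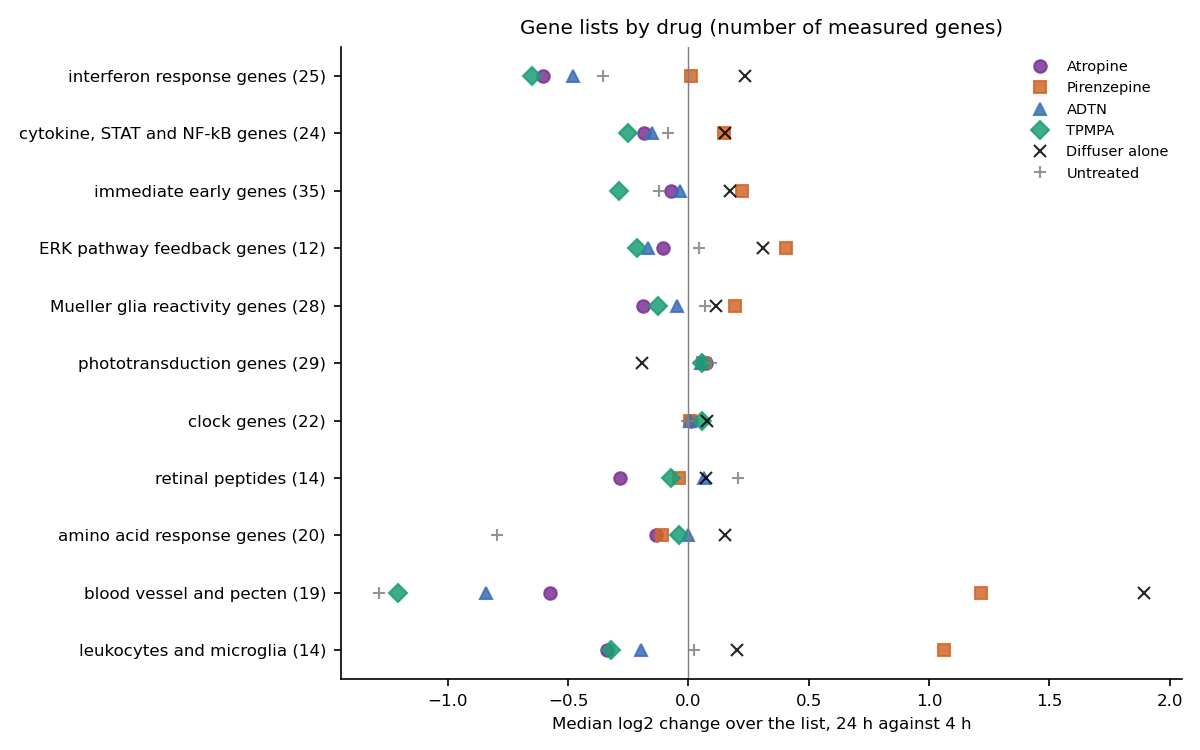
Median log2 change from 4 h to 24 h over the measured genes of each list, for each drug and for eyes with the diffuser alone; the number of measured genes is in brackets. The interferon and vessel lists were below 0 with atropine, ADTN and TPMPA. The vessel and leukocyte lists were above 1 with pirenzepine, where second-injection replicate 1 had mean log2 levels of 3.54 and 3.56. Replicates 2 to 4 were at 0.14 to 0.88 and at 1.67 to 1.91. The TPMPA vessel value includes first-injection replicate 1, at 3.77 against 0.07 to 0.29 in replicates 2 to 4.

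Each injection was next set against eyes with the diffuser alone at the same time; the 4 h and the 24 h comparison share no library. After the first injection 248 genes passed (1.58%), 154 higher (0.978%) and 94 lower (0.597%). After the second injection 22 passed (0.14%), 20 higher (0.127%) and 2 lower (0.0127%). The diffuser-only eyes of the 2 times differed in mean vessel level and depth, with overlapping ranges. The vessel list's mean log2 level averaged 0.93 in them at 4 h and 2.74 at 24 h. In injected eyes it averaged 1.68 and 1.32. Over the transcripts kept, diffuser-only libraries held 7398097 to 15105713 counts at 4 h and 14489812 to 17736318 at 24 h. The part of these differences in the 248 and the 22 calls was not tested beyond the covariate fits. Both gene counts depended on single libraries. The first was 415, 67, 91 and 52 without diffuser-only replicates 1, 2, 3 and 4. The second was 4, 5, 3 and 10 without diffuser-only replicates 1 to 4, 47 and 39 without atropine replicates 1 and 3, and 63 without pirenzepine replicate 1. Of the genes that passed, 14 did so at both times, which is 5.65% of the first list and 63.6% of the second, and all 14 had the same sign. MYBPC3 (−2.82), 1 of the 2 genes lower at 24 h, reversed its sign without diffuser-only replicate 4, as given at the end.

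The genes of both lists included the ATP receptor P2RY2, the heparan sulfate proteoglycan SDC1, the Notch target HEY1, the oxidative stress factor NFE2L2, the peptidylarginine deiminase PADI3 and the endocytic receptor CUBN, besides SPRY2, IFITM5, STAT3 and SOCS3. P2RY2 read 11.4, 12.6, 16 and 14.8 CPM in diffuser-only eyes at 4 h, against 46.8, 55.7, 47.5 and 49.5 in atropine eyes. At 24 h it read 10.5, 13.1, 13.7 and 13.6 against 18.9, 44.5, 28.8 and 39.0. The atropine eyes lay above the diffuser-only eyes at both times, and the mean over the drugs was 1.52 (adjusted p = 3.6e-05) after the first injection and 1.29 (adjusted p = 0.0011) after the second. SDC1 was at 4.07 and 3.46, PADI3 at 1.39 and 1.53, CUBN at 1.34 and 1.5, HEY1 at 0.55 and 0.64, and NFE2L2 at 0.43 and 0.57, each passing at both times with all libraries. SDC1 between the 2 injections read 5.32, 26.9 and 82.6 CPM (lowest, median, highest) and then 1.61, 13.0 and 109, a log2 change of −0.56 that did not pass (adjusted p = 0.904).

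STAT3 was 1.07 above diffuser alone after the first injection (adjusted p = 4.19e-05) and 0.77 above it after the second (adjusted p = 0.0119). SOCS3 was at 4.44 (adjusted p = 0.00398) and 4.02 (adjusted p = 0.0189). GFAP was at 1.91 after the first injection (adjusted p = 0.00296) and at 0.70 after the second, which did not pass (adjusted p = 0.447), with a difference between the 2 changes of −1.21 (adjusted p = 0.472). When 1 compared library was left out, IFITM5 and P2RY2 kept the second-injection call in 20 of 20 fits, but with only the compared groups in the fit both lost it (adjusted p = 0.13 and 0.176). STAT3, SOCS3, SDC1 and PADI3 lost it without any 1 of the diffuser-only libraries at 24 h (0.0506 to 0.171). HEY1 and NFE2L2 lost it without diffuser-only replicate 1, 2 or 3 (0.0598 to 0.186), and CUBN without replicate 1 or 3 (0.151 and 0.138). At 4 h, HEY1 and NFE2L2 lost the first-injection call without any 1 of the 4 diffuser-only libraries (0.0509 to 0.121), and CUBN and PADI3 lost it without replicate 4 (0.057 and 0.0762).

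The 154 genes that were higher after the first injection had a median log2 change of 0.79 there and of 0.35 after the second injection, when 140 were positive and 146 had a smaller change than before. The 94 lower genes had medians of −0.38 and −0.10, with 80 negative and 93 smaller. These genes were selected on the first-injection values, whose medians are therefore inflated, and over all genes 48.6% were positive at 24 h. Of the 20 genes higher after the second injection, which were selected on the second-injection values, 8 had a smaller change there than after the first. Over 13071 genes with a mean of at least 2 CPM in the injected libraries, the 2 changes had a Pearson correlation of 0.154. The difference of the 2 changes was tested gene by gene and no gene passed with edgeR (0%, with 1488 genes at an unadjusted p under 0.05); limma voom called 0 and DESeq2 called 2. Without diffuser-only replicate 4 at 24 h the edgeR count was 21, and without replicate 1 at 4 h it was 1.

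**Figure D4:**
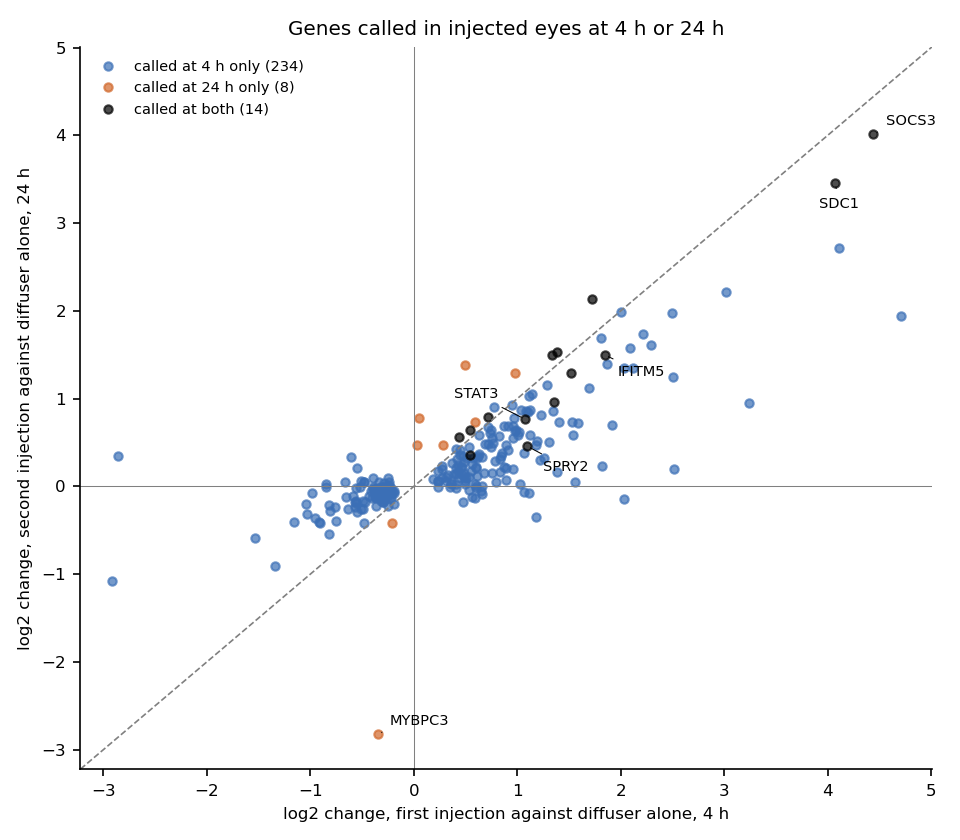
Log2 change against eyes with the diffuser alone after the first injection (x, 4 h) and after the second (y, 24 h), as means of the 4 drugs, for every gene that passed at either time: 234 at 4 h only, 8 at 24 h only and 14 at both. Most genes called at 4 h keep their sign at 24 h (220 of 248) and lie closer to 0. They were selected on their 4 h values, and the share of all genes with the same sign at both times was not counted. The 24 h value of MYBPC3, which is labelled, reversed its sign when a single diffuser-only library was left out.

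Within single drugs, edgeR called 36 genes with pirenzepine (0.229%), 30 higher (0.191%) and 6 lower (0.0381%) after the second injection. It called none with atropine (576 genes at an unadjusted p under 0.05; 8 by voom and 4 by DESeq2), none with ADTN (689; 0 and 2) and none with TPMPA (1011; 0 and 10). With the replicate number as a block, edgeR called 1 gene with atropine and 0 with ADTN, the drugs whose same-numbered libraries deviated together. The atropine gene was ENSGALG00000030374, which has no symbol (−0.89, adjusted p = 0.0442, against 0.101 without the block). The block fitted the same replicate effects to all groups of the study, so it did not pair libraries within a drug. No gene passed edgeR's F test of a difference in the change between the drugs (1613 genes at an unadjusted p under 0.05; 0 by voom and 47 by DESeq2), so no gene is shown to respond in pirenzepine eyes and not in the others.

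The pirenzepine genes included CCND1 and CCND2 (D-type cyclins, which drive entry into the cell cycle), FOSL2 (a partner in AP-1) and LPAR1. CCND1 read 24.3, 19.4, 26.5 and 28.3 CPM after the first injection and 68.0, 46.2, 40.8 and 39.4 after the second, a log2 change of 0.98 (adjusted p = 0.00956). CCND2 read 5.20, 2.42, 4.91 and 6.45 CPM and then 17.9, 12.8, 10.7 and 8.61, a log2 change of 1.39 (adjusted p = 0.00956). FOSL2 read 4.97, 7.08, 11.8 and 7.09 CPM and then 16.3, 24.5, 26.8 and 25.6, a log2 change of 1.60 (adjusted p = 0.0458). For all 3 genes every second-injection library lay above every first-injection library. The genes were called on these same libraries, so this separation is no separate support for the calls. The share of all genes that separate in this way was not counted.

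Other genes that rose were MEF2C (a transcription factor; 0.66), PIK3R1 (a regulatory subunit of PI3 kinase; 0.78), GABRB4 (a GABA-A receptor subunit of birds; 0.86), ETV5 (an ETS factor; 0.58) and LY75 (an endocytic receptor; 0.89). STAMBP (a deubiquitinase) fell, from 42.6, 42.9, 35.4 and 37.7 CPM to 26.2, 21.3, 28.5 and 32.8, without overlap (−0.54, adjusted p = 0.0306). NES (nestin; 1.80) was counted a second time as ENSGALG00000013239, a transcript of the same gene that carries no symbol in the deposited table. The 36 entries called came from 34 gene identifiers. The 30 higher genes had a median of 0.75 with pirenzepine, 0.03 with atropine, −0.01 with ADTN, −0.12 with TPMPA and 0.14 with the diffuser alone. These genes and STAMBP were selected on the pirenzepine values.

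The pirenzepine count rested on single libraries: it was 9, 1 and 254 without replicates 1, 2 and 3 of the first injection and 5, 6, 7 and 171 without replicates 1 to 4 of the second. FOSL2 and ETV5 were called in 2 of the 8 fits without 1 pirenzepine library, and MEF2C, PIK3R1, GABRB4, LY75 and STAMBP in 3, with adjusted p-values of up to 0.29 for FOSL2, 0.158 for ETV5, 0.299 for GABRB4 and 0.313 for PIK3R1. CCND1, CCND2 and NES were called in 6 and lost their calls without replicate 2 of the first injection (adjusted p = 0.134, 0.134 and 0.113) and without replicate 1 of the second (0.0912, 0.0912 and 0.0746). That last library had a mean log2 level of 3.54 for the vessel list and 3.56 for the leukocyte list. Replicates 2 to 4 of its group were at 0.56, 0.14 and 0.88, and at 1.67, 1.80 and 1.91. The part of these cells in the pirenzepine genes was not tested. With the vessel level as a covariate the count was 12, and LPAR1 was the 1 pirenzepine gene named here that was called in all 19 settings in which it was tested.

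**Figure D5:**
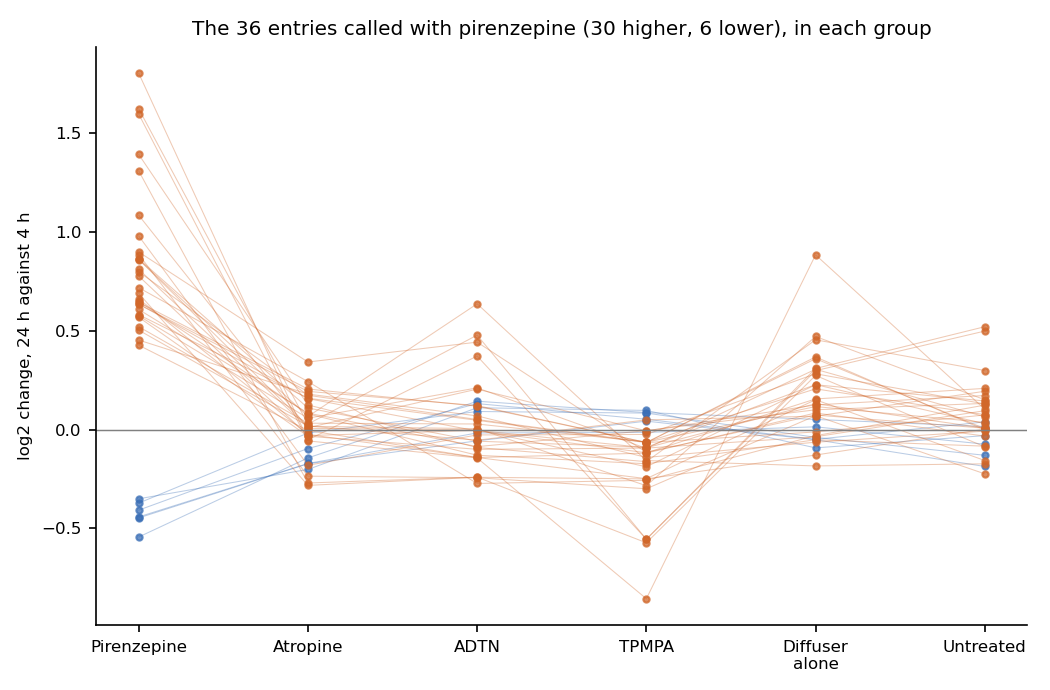
Log2 change from 4 h to 24 h of the 36 entries (34 gene identifiers) called with pirenzepine, in each drug, with the diffuser alone and in untreated eyes; each line is 1 entry. The 30 higher genes have a median of 0.75 with pirenzepine and medians between −0.12 and 0.14 in the other groups.

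The same interval without an injection gave few calls, but from fewer libraries: 8 with the diffuser alone and 7 untreated, against 32 injected. The numbers of calls therefore do not compare the size of the changes. At an unadjusted p under 0.05 in edgeR's test there were 886 genes between the injections, 1527 with the diffuser alone and 708 in untreated eyes. These counts include the share of 0.05 of all tested genes that is expected if none changed. With the diffuser alone edgeR called no gene (0%, with 1527 at an unadjusted p under 0.05; 0 by voom and 3 by DESeq2). Without replicate 4 at 24 h it called 31, and without replicate 1 at 4 h it called 3. In untreated eyes it called 2 genes (0.0127%), both lower at 24 h, CHAC1 and MTHFD2 (a mitochondrial folate enzyme). The count was 0 without replicate 1 or 3 at 4 h or any 1 library at 24 h, 9 without replicate 2 at 4 h and 22 without replicate 4 at 4 h. CHAC1 read 78.1, 7.35, 72.3 and 4.00 CPM at 4 h and 1.48, 0.788 and 2.18 at 24 h, a log2 change of −4.77 (adjusted p = 0.0222). MTHFD2 read 151, 51.0, 132 and 26.7 CPM and then 32.8, 23.2 and 26.1, a log2 change of −1.72 (adjusted p = 0.0421). For CHAC1 the 3 libraries at 24 h lay below all 4 at 4 h, with 2 of the 4 h libraries far above the others, and for MTHFD2 the 2 times overlapped. None of the 9 genes called between the injections passed with the diffuser alone or in untreated eyes, and that difference was not called either.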

How the data were processed

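Whole-retina total RNA (RNA integrity above 7, per the labels) was made into directional libraries and read in pairs over 75 cycles on a NextSeq 500. Per the submitters' processing notes, the build was galGal5 and the tools were HISAT2 2.1, Trimmomatic 0.36, HOMER, limma and edgeR, with no role or order given. The authors deposited unnormalized counts for each transcript and library (38118 transcripts, 24881 gene identifiers). Deposited lengths and coordinates, per the file headers in bases and of another unit than counts, served to place genes. All 54 count columns carried a sample's label.

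The transcript with the largest summed count was taken for each gene symbol, or for each identifier without a symbol (24599 entries). Of the 38118 deposited transcripts, 39.5% have no symbol. filterByExpr (minimum count 10, minimum total 15) left 15746 genes. One edgeR 4.0.16 quasi-likelihood fit (robust, TMM scaling; R 4.3.3, limma 3.58.1) of all 54 libraries held 14 group means. The repeat-injection contrast was the mean of the 4 within-drug differences. Tests were two-sided with Benjamini-Hochberg adjustment over all genes, at 0.05. Each standard error was derived from the test, as the size of the log2 change over the square root of the F statistic. Confidence intervals were that value times a t quantile, so both are approximate and use the spread estimated from all 54 libraries. On data simulated for this contrast over 15746 genes, 89% of changes of 0.5 log2 and 99% of changes of 1 log2 were recovered, with 9 false calls. The changes were placed only in genes with a mean of at least 2 CPM and were equal in all 4 drugs. The simulated libraries were independent and had no differences in cell content or between groups. The recovery therefore does not give the sensitivity in the real libraries.

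The comparison was proposed, and the gene lists were chosen, with earlier results of these data known. Of the entries tested, 247 (1.57%) carry no symbol but the identifier of another tested entry. With the 4 pairs of same-numbered libraries in each drug, the correlation of deviations from the group means was over 0.1 in all 4 pairs with atropine (0.226 to 0.409) and ADTN (0.159 to 0.496), but in 1 with pirenzepine and 0 with TPMPA; the labels do not say what a number marks. Named genes with a symbol and a mean of at least 2 CPM in the injected libraries were, by rule, up to 12 rises and 12 falls with 1 sign in all 4 drugs, up to 8 each way in the comparison with the diffuser-only change, up to 8 for the difference between drugs, up to 4 a list, and a set of followed genes. LPAR1, AOX1, ENSGALG00000028629, the genes just outside the threshold, those of the single-drug and diffuser comparisons and the list members without the smallest p were chosen after their values were seen. TH was not used here. Alternatives (other scaling, filters, transcripts, covariates, tools, libraries left out) are given at the end. No 2 libraries had identical counts.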

Additional observations from a re-analysis of the deposited data

Results flagged for a closer look

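Within groups of 4 libraries, the 9 genes called between the injections and 13 followed genes were examined for a single library far from the others by Dixon's criterion, which chance meets in about 1 group in 20. It was met in 20 of 176 groups (22 genes in each of 8 injected groups). SPRY2 read 70.2 CPM in ADTN replicate 3 after the first injection. CLCN2 stood apart in 3 groups, at 6.84 CPM in pirenzepine replicate 3 after the second injection, at 13.5 CPM in TPMPA replicate 1 after the first and at 21.4 CPM in TPMPA replicate 2 after the second. LPAR1 read 24.3 CPM in TPMPA replicate 1 after the second injection. HS3ST1 read 21.4 CPM in atropine replicate 3 and 13.2 CPM in ADTN replicate 2, both after the second injection.

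EGR1 read 415 CPM in TPMPA replicate 4 after the first injection, and 137 CPM in pirenzepine replicate 3 and 115 CPM in TPMPA replicate 2 after the second. FOS read 37.8 CPM in atropine replicate 2 after the second injection. UTS2B read 16.9 CPM in pirenzepine replicate 3 after the first injection. BMP2 read 34.7 CPM in atropine replicate 3 after the first injection and 17.7 CPM in ADTN replicate 4 after the second. In pirenzepine replicate 1 after the second injection, SST was low at 1.42 CPM and STAT3 was low at 348 CPM. CHAC1 was low at 2.22 CPM in pirenzepine replicate 1 after the first injection. PER3 read 214 CPM in atropine replicate 3 and 98.9 CPM in ADTN replicate 4, both after the first injection. OPN4-1 was low at 72.5 CPM in atropine replicate 1 after the second injection.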

How the results depend on the processing

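Between the 2 injections the main count was 9 genes; it was 26 with DESeq2, 1 with only the compared groups in the fit, 4 with an additive drug block on the 32 libraries, 1 without the atropine and 5 without the pirenzepine libraries, and between 7 and 10 in the other 11 settings. Leaving out 1 library gave 4 to 14. The injected change less the diffuser-only change gave 2 with DESeq2 (0 to 21 leaving out 1 library), the difference between drugs 47 (0 to 3). With the diffuser alone, 24 h against 4 h, the count was 1 with the vessel level as a covariate and 3 with DESeq2 (0 to 31). In untreated eyes (main count 2) it was 1 with no filter, the replicate block, total count or small RNA level as a covariate, 0 with the vessel level, voom or only the compared groups, and 22 with DESeq2 (0 to 22). With atropine it was 1 with the replicate block, 8 with voom and 4 with DESeq2 (0 to 6), with ADTN 2 with DESeq2 (0 to 2) and with TPMPA 10 (0 to 1). With pirenzepine (main count 36) it was 16 with no filter, 235 with the replicate block, 62 with total count, 12 with the vessel level, 6 with the small RNA level and 251 with DESeq2 (1 to 254). Injected against diffuser alone at 4 h (main count 248) gave 162 with total count, 121 with voom, 424 with DESeq2 and 159 with only the compared groups (52 to 415), and at 24 h (main count 22) 38 with the replicate block, 11 with voom, 79 with DESeq2 and 1 with only the compared groups (3 to 63). MYBPC3, injected against diffuser alone at 24 h, reversed from −2.82 (adjusted p = 0.000571) to 0.36 without diffuser-only replicate 4 (−3.19 to 0.36 leaving out 1 library), which read 81.5 CPM against 2.27 to 2.68 in the others. Causes were not tested.

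Over the 16 pairs of same-numbered second- and first-injection libraries, the correlations of deviations ran from −0.174 to 0.496 (mean 0.136, against −0.0409 for other numbers), 9 exceeded 0.1, and 8 of 16 first-injection libraries correlated best with their own number. Same-numbered libraries deviated together with atropine and ADTN but not over the 4 drugs. With ADTN, first-injection replicate 1 correlated better with second-injection replicate 2 (0.408) than with replicate 1 (0.159). Whether the numbers pair samples is therefore not known. With the replicate block the comparison of the 2 injections gave 8 genes. Its replicate effects were shared by all groups, so libraries were not paired within a drug. CLCN2 lost its call in 7 of the 32 fits without 1 library, with an adjusted p of at most 0.078, and LPAR1 in 9 (at most 0.078). IFITM5 lost its call in 17 (at most 0.101), HS3ST1 in 22 (at most 0.121) and AOX1 in 23 (at most 0.136).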
